A study of Rattus norvegicus with 24 samples.

Results

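Mast cell genes were followed in the rat urethra after simulated vaginal delivery. The members were 9 of the 32883 genes of the table: Cpa3, Tpsb2, Tpsab1, Cma1, Hdc, Ms4a2, Fcer1a, Kit and Gata2. They are textbook genes of the mast cell, and they were chosen by measured values too, since the low values of Cpa3, Tpsb2 and Hdc after MABsallo at 3d were already known and were the largest of the list. The comparison of MABsallo with saline at 3d is therefore a description, given with no test, and so is every other comparison that uses those samples. All 9 members had a mean normalized count of at least 2 over the 24 samples, which was the filter on low values, and 16287 genes passed it.

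Urethras came from 12-week-old wild-type female Sprague-Dawley rats that had not given birth. All rats underwent SVD, in which the pudendal nerve is crushed and the vagina is distended with a balloon, and all received an infusion into the aorta 1 h later. The infusion was saline, MABsallo or MABsallo-VEGF. Mesoangioblasts (MABs) are progenitor cells associated with vessels, here grown from hind limb skeletal muscle of other rats (allogeneic). The study's methods name a lentiviral vector for eGFP and firefly luciferase (CMV promoter) for MABs, and one for VEGF165 and a truncated CD34 (SFFV promoter) for MABsallo-VEGF. The study elsewhere calls MABsallo untransduced, and the sources do not say whether MABsallo-VEGF carried both vectors. Each of the 3 treatments was sampled at 3d and at 7d with 4 samples, and the labels mark replicates 6 and 7 of MABsallo-VEGF at 7d as recovered. No animal without SVD is among the samples used here.

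Mast cells are resident immune cells of connective tissue and mucosa, and lie along vessels and nerves. Their granules store proteases and histamine bound to heparin, and cross-linking of IgE on the high-affinity receptor FceRI releases them within minutes. Survival of the cells in tissue depends on stem cell factor (Kitlg) acting on its receptor KIT, and GATA2 is one of the transcription factors that drive their genes. In the lower urinary tract they are found in the lamina propria and between muscle bundles.

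Promoters are shown for Cpa3, Tpsb2, Tpsab1 and Hdc, whose levels varied together across the samples. RefSeq sequences (GRCr8) matched 8 of the 9 members by symbol, and Ms4a2 had no entry. The 250 bases before the start of transcription were searched for GATAA, the core that GATA factors bind, on both strands (TTATC on the other strand). The motif occurred in 4 of the 8 promoters, those of Cpa3, Tpsab1, Cma1 and Fcer1a, and in 23.5% of 33469 promoters of the same length. Promoters of Tpsb2, Hdc, Kit and Gata2 held no match. Sequences are given 5′ to 3′ in the direction of transcription for the 3 members with the lowest values after MABsallo relative to saline and for Tpsab1, with GATAA or TTATC in capitals. They lie at chr2:104673238-104673487 (minus strand) for Cpa3, chr10:14886060-14886309 (plus strand) for Tpsb2, chr10:14867303-14867552 (minus strand) for Tpsab1 and chr3:134318705-134318954 (minus strand) for Hdc.
Cpa3: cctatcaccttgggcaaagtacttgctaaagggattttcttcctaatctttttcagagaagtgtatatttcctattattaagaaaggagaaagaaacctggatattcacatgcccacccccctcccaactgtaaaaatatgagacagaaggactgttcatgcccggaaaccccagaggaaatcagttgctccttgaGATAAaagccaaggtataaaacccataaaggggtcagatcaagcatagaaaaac
Tpsb2: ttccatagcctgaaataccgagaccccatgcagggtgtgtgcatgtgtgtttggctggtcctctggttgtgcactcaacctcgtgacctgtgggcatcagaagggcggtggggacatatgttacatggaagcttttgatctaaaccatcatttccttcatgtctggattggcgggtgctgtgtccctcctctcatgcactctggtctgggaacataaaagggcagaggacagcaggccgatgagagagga
Tpsab1: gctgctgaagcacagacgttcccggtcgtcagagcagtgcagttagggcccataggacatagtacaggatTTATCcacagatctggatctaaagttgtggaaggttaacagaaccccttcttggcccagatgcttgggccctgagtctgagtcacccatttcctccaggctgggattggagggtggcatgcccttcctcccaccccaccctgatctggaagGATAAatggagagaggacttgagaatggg
Hdc: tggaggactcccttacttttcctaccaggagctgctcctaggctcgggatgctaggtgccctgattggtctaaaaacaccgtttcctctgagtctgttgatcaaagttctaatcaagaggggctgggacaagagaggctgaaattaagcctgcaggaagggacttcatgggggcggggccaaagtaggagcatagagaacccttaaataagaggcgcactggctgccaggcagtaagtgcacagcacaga

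In Cpa3 the match began 54 bases before the start of transcription. The promoter of Tpsab1 held 1 match on each strand, and the nearer began 29 bases before the start. Tpsb2 and Tpsab1 are neighbours on chromosome 10 and are transcribed in opposite directions. A match is a description of the letters only and does not show that a factor binds there. The positions are those of GRCr8, whereas the reads were counted on Rnor6.0.

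Libraries held 2170695 to 10166052 reads on genes, and 1 read was worth 1.67 to 9.23 normalized counts. MABsallo at 3d was the shallowest group with 2170695 to 4491900 reads, against 4851797 to 5249467 for saline at 3d. Mitochondrial genes took 23.8% to 35.4% of the reads after MABsallo at 3d, 15.7% to 39.1% after MABsallo-VEGF, 12.7% to 20.04% after saline, and 11.9% to 16.2% in all libraries of 7d. On the first principal component of the 500 most variable genes (70.7% of the variance), saline replicate 6 lay at 54.6 while the other 3 saline libraries of 3d lay between -52.3 and -6.44. MABsallo-VEGF replicate 4 lay at 0.70 while the other 3 of its group lay between 57.3 and 75.2. Urothelial and squamous markers summed to 780 in saline replicate 8 and 1442 in MABsallo-VEGF replicate 2, against at least 9694 in each of the other libraries of 3d. The numbers of samples are those of the labels, which do not say that samples are separate rats, so p-values measure only the spread between these samples, which may be technical.

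Granule proteases were lower after MABsallo than after saline at 3d in every library. Cpa3 (ENSRNOG00000011181), the mast cell carboxypeptidase, had 62.0, 862, 236 and 155 normalized counts in saline replicates 6, 8, 9 and 10. After MABsallo it had 0, 21.9, 9.23 and 0 in replicates 1 to 4, and after MABsallo-VEGF 10.8, 142, 15.1 and 49.0. No MABsallo library reached the lowest saline library, whereas MABsallo-VEGF replicate 2 lay above that library. The means were 329 ± 363 (SD, n = 4), 7.78 ± 10.4 and 54.2 ± 60.8. The log2 difference of Cpa3 (here and below the fitted difference in log2(normalized count + 1), with its SE) was -5.76 ± 0.99 between MABsallo and saline and -2.63 ± 0.99 between MABsallo-VEGF and saline. Counted reads of Cpa3 were 348 in the 4 saline libraries and 5 in the 4 MABsallo libraries, 38.7-fold fewer after adjustment for the size factors (95% exact interval 16.4 to 119.8, which covers counting error only, as do all such intervals below). Saline replicate 8 held 220 of the 348 reads of Cpa3, and without it the saline mean was 151 and the ratio 18.5 (7.71 to 57.8).

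Tpsb2 (ENSRNOG00000018611), a beta tryptase also known as Mcpt6, had 62.0, 576, 232 and 246 normalized counts after saline at 3d. The 4 MABsallo libraries had 0, 16.4, 0 and 21.7, and the 4 MABsallo-VEGF libraries 21.6, 250.03, 35.3 and 53.4. Every MABsallo library again lay under every saline library, and 3 of the 4 MABsallo-VEGF libraries did so. The log2 difference of Tpsb2 was -5.58 ± 0.92 after MABsallo and -1.89 ± 0.92 after MABsallo-VEGF. MABsallo-VEGF replicate 2 had 250.03, against 21.6 to 53.4 in the rest of its group.

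Tpsab1 (ENSRNOG00000024181), the tryptase also called Mcpt7, had 48.2, 247, 100.1 and 127 normalized counts after saline. It had 0, 10.9, 0 and 21.7 after MABsallo and 0, 66.7, 0 and 31.2 after MABsallo-VEGF. Reads were absent from 2 of 4 libraries of each MABs group, and MABsallo did not overlap saline. The log2 difference of Tpsab1 was -4.79 ± 1.17 after MABsallo and -4.04 ± 1.17 after MABsallo-VEGF. Tryptase genes resemble each other, and the authors discarded reads that mapped to several places, so the share of tryptase reads lost or placed on one of the genes is uncertain.

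Cma1 (ENSRNOG00000020563), the chymase also known as Mcpt5, had 44.8, 204, 21.4 and 24.6 normalized counts after saline. Its values after MABsallo were 0, 5.47, 0 and 10.8, and after MABsallo-VEGF 0, 16.7, 5.04 and 8.91. Both MABs groups lay wholly under saline, with replicate 8 of saline far above the rest of its group. Only 3 reads of Cma1 were counted in the 4 MABsallo libraries against 78 after saline, a ratio of 14.4 (95% exact interval 4.76 to 71.5). Saline replicate 8 held 52 of those 78, and without it the ratio was 6.25 (1.92 to 32.3).

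**Figure D1:**
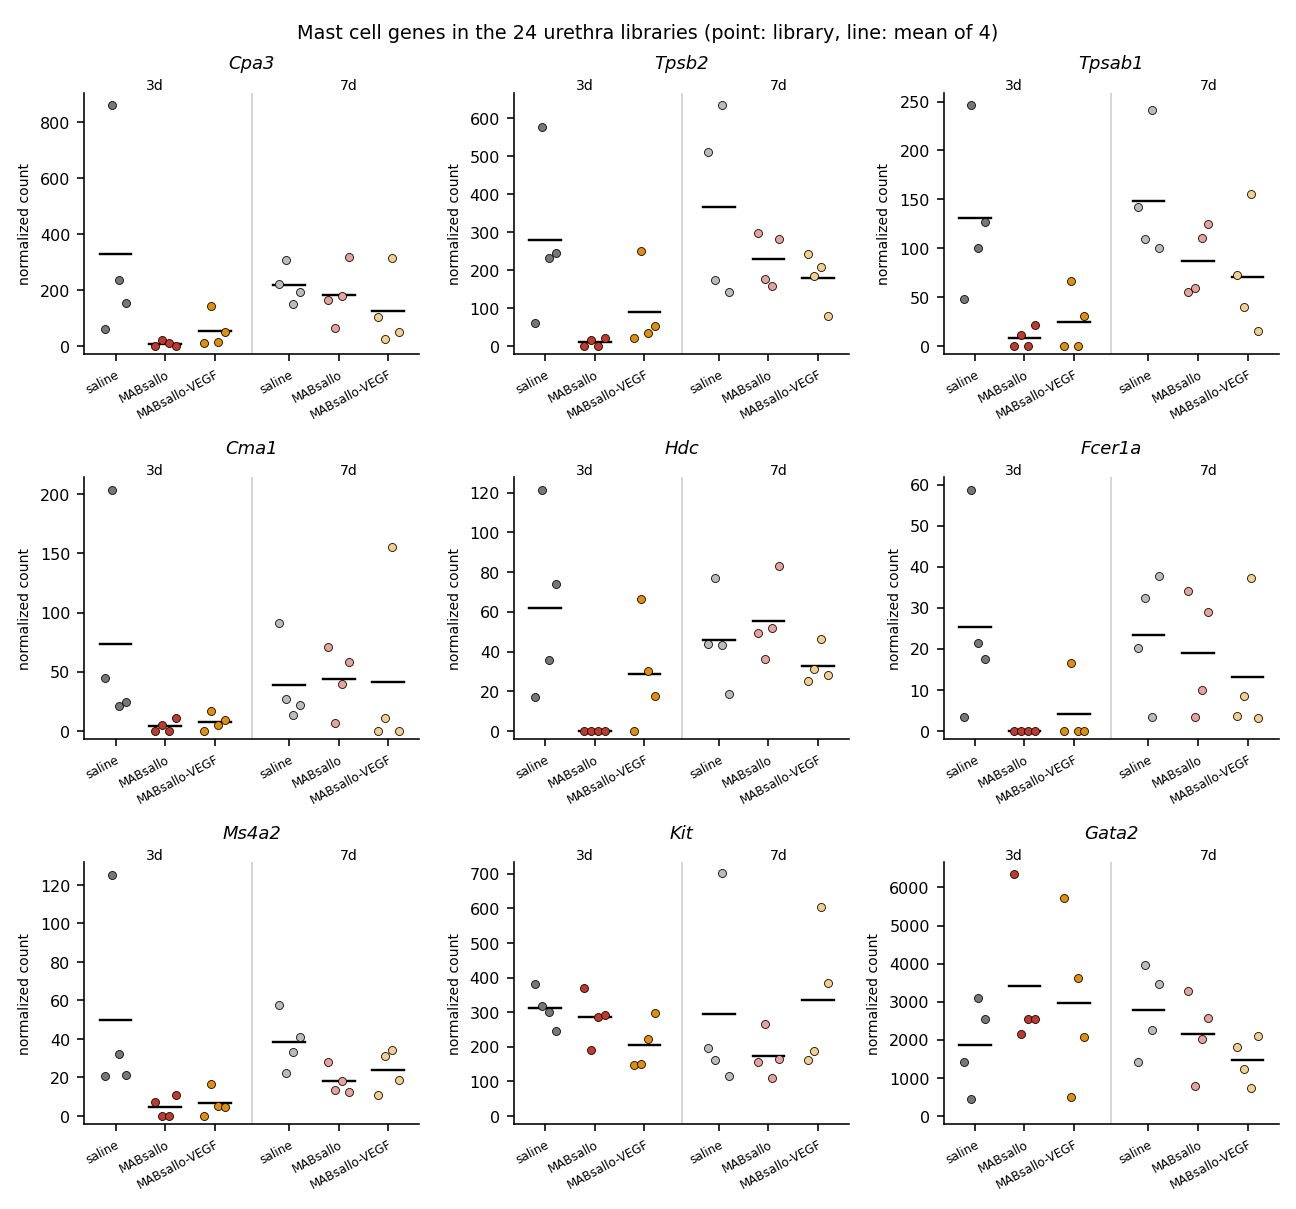
Normalized counts (y axis, linear, a scale for each gene) of the 9 members in the 24 libraries, by treatment and day; each point is a library and each line the mean of 4. Cpa3, Tpsb2, Tpsab1, Cma1, Hdc, Ms4a2 and Fcer1a are near 0 in the 4 MABsallo libraries of 3d, while Kit is at 191 or more and Gata2 at 2161 or more there.

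Histamine synthesis was represented by Hdc (ENSRNOG00000010262), the histidine decarboxylase that makes histamine. It had 17.2, 122, 35.7 and 73.9 normalized counts after saline at 3d and was listed at 0 in all 4 MABsallo libraries. After MABsallo-VEGF it had 0, 66.7, 30.3 and 17.8, so that 3 of the 4 libraries lay within the range of saline. The mean after MABsallo was at least 3.04-fold lower than the saline mean of 62.1 ± 46.1 (SD, n = 4), with the limit of detection set at 3 reads per library. At the saline mean the 4 MABsallo libraries would have held 6.73 to 11.4 reads of Hdc each, and at the lowest saline library 1.86 to 3.17. Saline replicate 8 held 31 of the 67 reads of Hdc after saline. Without it the saline mean was 42.3 and the bound 2.07-fold.

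The alpha and beta subunits of the IgE receptor, Fcer1a and Ms4a2, were also lower after MABsallo than after saline at 3d. Ms4a2 (ENSRNOG00000020993), the beta subunit of FceRI, had 20.7, 125, 32.2 and 21.1 normalized counts after saline, 7.10, 0, 0 and 10.8 after MABsallo, and 0, 16.7, 5.04 and 4.45 after MABsallo-VEGF. Both MABs groups lay under saline. Ms4a2 had 3 reads after MABsallo and 53 after saline, a ratio of 9.81 (95% exact interval 3.18 to 49.1). Saline replicate 8 held 32 of the 53, and without it the saline mean was 24.6 and the ratio 5.05 (1.51 to 26.4). Fcer1a (ENSRNOG00000009177), the alpha subunit that binds IgE, had 3.44, 58.8, 21.4 and 17.6 after saline and was listed at 0 in the 4 MABsallo libraries. It had 0, 16.7, 0 and 0 after MABsallo-VEGF, where the only library with reads was replicate 2. The saline mean of Fcer1a was 25.3 ± 23.6 (SD, n = 4), which makes MABsallo at least 1.24-fold lower. Without saline replicate 8 the saline mean of Fcer1a was 14.2, under the limit of detection of 20.4 in the MABsallo group. No bound set by that limit then remains. No library of any group held more than 15 reads of the gene.

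Kit (ENSRNOG00000002227), the receptor for stem cell factor, did not show this order. It had 382, 317, 300.2 and 246 normalized counts after saline, 369, 191, 286 and 293 after MABsallo and 146, 150.0, 222 and 298 after MABsallo-VEGF at 3d. The 3 groups overlapped, and the log2 difference of Kit was -0.15 ± 0.46 after MABsallo, with a sign that turned under 1 of 18 alternative settings. After MABsallo-VEGF the log2 difference of Kit was -0.65 ± 0.46. Gata2 (ENSRNOG00000012347) had 1405, 435, 3102 and 2544 after saline, 6362, 2161, 2539 and 2555 after MABsallo and 5726, 492, 3617 and 2070 after MABsallo-VEGF. These groups overlapped too, with a log2 difference of Gata2 of 1.05 ± 0.64 after MABsallo. The lowest Gata2 values of 3d were those of saline replicate 8 and MABsallo-VEGF replicate 2, the libraries lowest in urothelial and squamous markers and highest of their groups in Cpa3 and Tpsb2. Both genes are also used outside mast cells, Kit by interstitial cells and melanocytes and Gata2 by endothelium and urogenital epithelium.

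**Figure D2:**
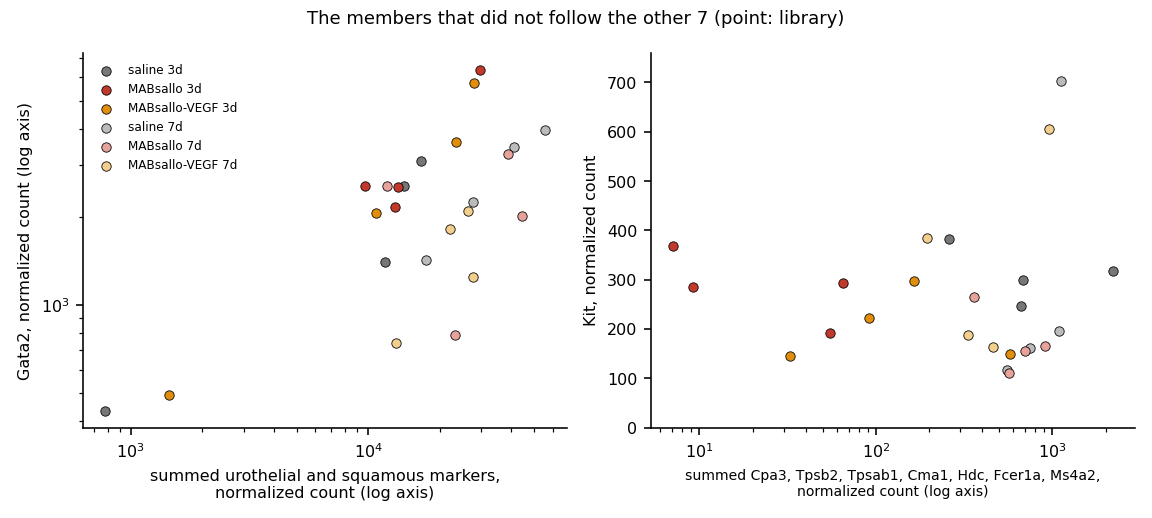
Left, Gata2 against the summed urothelial and squamous markers, both as normalized counts on log axes; right, Kit (normalized count, linear axis) against the summed counts of the other 7 members (log axis). Each point is 1 of 24 libraries, coloured by group. The libraries with epithelial sums of 780 and 1442 have the lowest Gata2 (435 and 492), and Kit stays between 191 and 369 in the MABsallo libraries of 3d, where the other 7 members are lowest.

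The members were compared with each other, and Kit and Gata2 did not vary with the rest. Over the 24 libraries the Spearman correlation with the mean log2 level of Cpa3 and Tpsb2 was 0.929 for Tpsab1, 0.858 for Hdc, 0.842 for Fcer1a, 0.803 for Ms4a2 and 0.787 for Cma1. It was 0.00261 for Kit and -0.313 for Gata2, against a median of -0.0191 over all genes ranked. Over the 16 libraries that are neither saline nor MABsallo at 3d, the 5 values were 0.911, 0.732, 0.705, 0.656 and 0.805, and those of Kit and Gata2 0.0853 and -0.215. The libraries share depth and tissue content, so these values describe the libraries and carry no p. Genes outside the members, such as Gli1 (0.904), Serping1 (0.893) and C1qb (0.878), had values above that of Hdc. The correlations therefore cannot test the mast cell label. Of the basophil markers listed only Prss34 was in the table, and it had no read in any of the 24 libraries.

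At 3d, 7 of the 9 members did not overlap between MABsallo and saline and were lower, a pattern that 5.22% of all 16287 genes showed. Since this contrast chose the members, nothing can be read from that difference. The median log2 difference over the 9 members was -4.19, beside 0.07 over all genes. Between MABsallo-VEGF and saline, which share the saline libraries with the first comparison, 2 of 9 members (Cma1 and Ms4a2) did not overlap, beside 1.64% of all genes, and the median over the members was -2.63 beside 0.04. Leaving out saline replicate 6 and MABsallo-VEGF replicate 4, the number was 7 of 9 for MABsallo (10.2% of all genes) and 6 of 9 for MABsallo-VEGF (11.8%), with medians of -4.87 and -3.25. Leaving out saline replicate 8 and MABsallo-VEGF replicate 2 instead, it was 7 of 9 (6.13% of all genes) and 6 of 9 (3.74%). The 7 members that did not overlap between MABsallo and saline were Cpa3, Tpsb2, Tpsab1, Hdc, Cma1, Ms4a2 and Fcer1a in all 3 counts. For MABsallo-VEGF, the 6 without saline replicate 6 and MABsallo-VEGF replicate 4 were Cpa3, Tpsab1, Cma1, Kit, Ms4a2 and Fcer1a. Without saline replicate 8 and MABsallo-VEGF replicate 2 they were Cpa3, Tpsb2, Tpsab1, Cma1, Ms4a2 and Fcer1a.

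Depth was lower in the MABsallo libraries of 3d, and the reads expected at saline levels can be set beside those counted. At the saline mean these 4 libraries would have held 35.6 to 60.6 reads of Cpa3 each, and at the level of the lowest saline library 6.71 to 11.4. They held 0 to 4. For Tpsb2 the corresponding ranges were 30.2 to 51.5 and 6.71 to 11.4 reads, and 0 to 4 were counted. For Cma1, Ms4a2 and Fcer1a the lowest saline library would have given 2.32 to 3.95, 2.24 to 3.81 and 0.373 to 0.635 reads, so a value of 0 in a single library could not be told from that level.

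Between the 2 kinds of MABs at 3d, 7 of 9 members had a higher log2 level after MABsallo-VEGF. Tpsb2 differed by 3.70 ± 0.92 on the log2 scale, Hdc by 3.82 ± 0.89 and Cpa3 by 3.13 ± 0.99. Hdc was at 0 in every MABsallo library, so that its difference depends on the pseudocount. All 9 members overlapped between these groups, and none was separated upwards, which 0.853% of all genes were. The median over the members was 0.95, beside -0.03 over all genes, and it was 0.19 without MABsallo-VEGF replicate 2. Tpsab1 was higher by 0.75 ± 1.17, a sign that turned when libraries were weighted by their quality. Kit and Gata2 were the 2 members with a lower level, at -0.51 and -0.52 on the log2 scale, and the sign of Gata2 turned in 1 of 11 alternative settings.

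**Figure D3:**
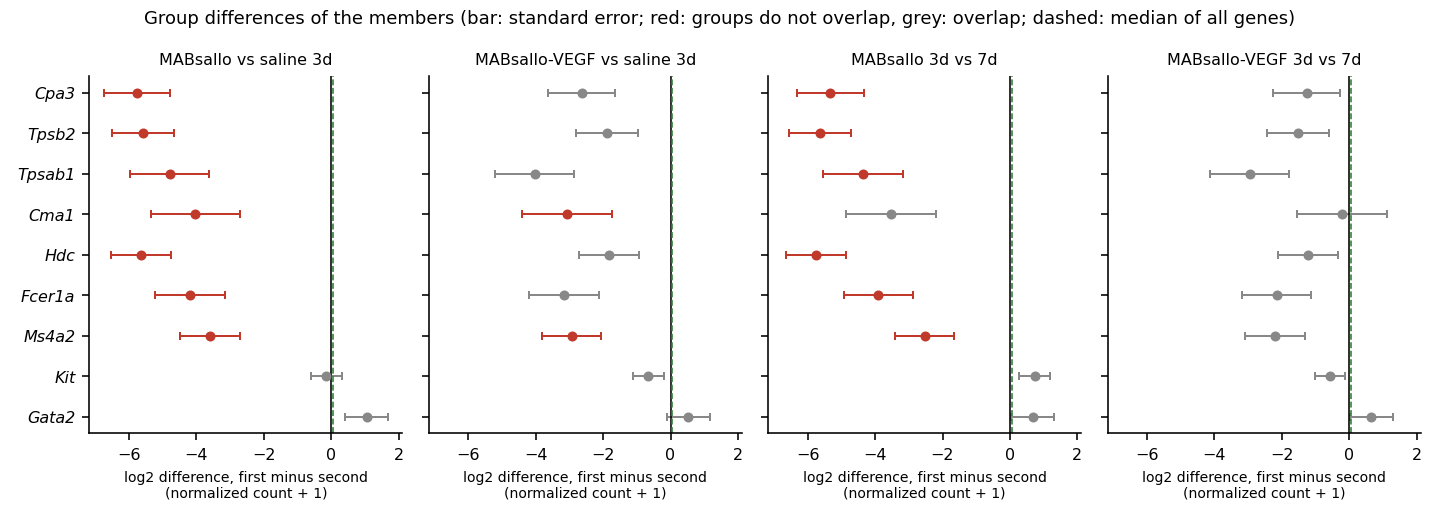
Log2 differences of the 9 members (x axis, first group minus second group, on the log2(normalized count + 1) scale) in 4 comparisons; points are fitted differences, bars their SE, red marks groups that do not overlap and the dashed line the median of all genes. Members lie between -5.76 and 1.05 for MABsallo vs saline at 3d, and between -2.96 and 0.65 for MABsallo-VEGF at 3d vs 7d.

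With time the members differed most in the MABsallo group. Cpa3 had 0 to 21.9 normalized counts at 3d and 164, 62.9, 178 and 319.6 at 7d in replicates 7.2, 9, 11 and 13. Tpsb2 had 297, 175, 158 and 282 at 7d, and Hdc 49.6, 36.4, 51.7 and 83.0. All 3 genes were above every MABsallo library of 3d in each library of 7d. In all, 6 of 9 members did not overlap and were lower at 3d, beside 9.33% of all genes, the exceptions being Cma1, Kit and Gata2. The median log2 difference between MABsallo at 3d and 7d was -3.90 over the members and 0.06 over all genes. In the saline group the same median was -0.0014, beside 0.05, with 4 members higher at 3d and 5 lower and no member separated. The share of all genes separated between the days of saline is not given here.

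MABsallo-VEGF at 3d and 7d is a comparison in which no sample chose the members, and limma's adjusted p-values are given. The spread behind them was estimated over all groups, including the samples that chose the members. Cpa3 had 105, 25.7, 313 and 50.4 normalized counts at 7d in replicates 6, 7, 11 and 12, and Tpsb2 243, 185, 208 and 78.8. Tpsab1 had 72.6, 39.9, 155 and 15.8. Each of these ranges overlapped that of 3d. Of the 9 members 8 were lower at 3d, and none was called at an adjusted p below 0.05 and a log2 difference beyond 1, whereas 15.3% of all genes were called. Unadjusted p-values below 0.05 were found for Tpsab1 (log2 difference -2.96 ± 1.17, limma adjusted p = 0.0777), Ms4a2 (-2.21 ± 0.88, adjusted p = 0.0795) and Fcer1a (-2.16 ± 1.03, adjusted p = 0.144), beside 5447 of the 16287 genes. DESeq2 and edgeR on the recovered reads also called 0 of the 9 members, beside 2836 of 20096 and 2599 of 16287 genes. None of the 9 was separated between the days, beside 8.01% of all genes that were separated and lower at 3d. The call rested on a few libraries: without MABsallo-VEGF replicate 2 of 3d, limma called Tpsab1 (adjusted p = 0.0208), Ms4a2 (0.0425) and Fcer1a (0.0333), and without replicate 4 of 3d it called Tpsab1 (0.0300). Over all fits that left out 1 library, limma called 1746 to 3217 of all genes.

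At 7d the 3 treatments were compared with samples that had no part in the choice of members. In the fit, the estimate of the spread was shared by all groups, including the samples that chose the members. Cpa3 had 223, 306, 151 and 192 normalized counts in saline replicates 1, 2, 3 and 5, within which lay 2 of the 4 MABsallo libraries and none of the MABsallo-VEGF libraries, whose values were on both sides of that range. Tpsb2 had 511, 174, 636 and 142 after saline, so that replicates 1 and 3 stood well above the other 2. Tpsab1 had 142, 109.5, 241 and 100.6 after saline, 55.8, 59.6, 110.1 and 125 after MABsallo and 72.6, 39.9, 155 and 15.8 after MABsallo-VEGF. The order of the means was the same for Cpa3, Tpsb2, Tpsab1, Fcer1a and Gata2, with saline highest and MABsallo-VEGF lowest, but all 9 members overlapped between each pair of treatments. The share of all genes that overlapped at 7d is not given here, so that count describes the members only.

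No member passed limma's test between treatments at 7d. MABsallo and saline differed by -1.05 to 0.36 on the log2 scale (adjusted p 0.938 to 1), MABsallo-VEGF and saline by -2.20 to 0.36 (adjusted p 0.831 to 0.984), and MABsallo-VEGF and MABsallo by -2.36 to 0.81 (adjusted p of 1 for all 9). The -2.20 was that of Cma1, whose mean was higher after MABsallo-VEGF (41.6, against 38.5 after saline) and whose sign was positive with DESeq2 and edgeR. In this fit of all 24 samples no member had an unadjusted p below 0.05. Of all genes 0% were called in each of the 3 comparisons, where an unadjusted p below 0.05 was reached by 1014, 1033 and 452 genes, so the count for the members equals the background. DESeq2 called 0, 27 and 4 genes and edgeR 0, 0 and 0, with 0 members in each. Between MABsallo-VEGF and saline, limma on only the groups compared gave 2 members an unadjusted p below 0.05. It did so for 1932 of 15198 genes. With sample quality weights 3 members had such a p, but the number over all genes is not given, so nothing can be read from it. In that fit 147 genes but no member were called. The intervals were wide: for Cpa3 the 95% confidence interval of MABsallo minus saline ran from -2.48 to 1.62, and that of MABsallo-VEGF minus saline from -3.41 to 0.68. These data therefore do not show that the treatments were alike at 7d.

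The other members at 7d were at low counts, apart from Kit and Gata2. Hdc had 44.0, 77.2, 43.5 and 18.9 normalized counts after saline, 36.4 to 83.0 after MABsallo and 25.4 to 46.5 after MABsallo-VEGF. Cma1 had 91.3, 27.4, 13.4 and 22.01 after saline, and after MABsallo-VEGF 0, 11.4, 155 and 0, so that 1 library held nearly all its reads. Ms4a2 ranged from 22.4 to 57.5 after saline, from 12.5 to 27.9 after MABsallo and from 10.9 to 34.1 after MABsallo-VEGF. Kit had 196, 162, 703 and 116 after saline, 155, 265, 110.1 and 166 after MABsallo and 163, 188, 605 and 385 after MABsallo-VEGF. Its highest values were in saline replicate 3 and MABsallo-VEGF replicate 11, and Kit overlapped between the groups. Gata2 had means of 2776 ± 1153 after saline, 2164 ± 1052 after MABsallo and 1475 ± 605 after MABsallo-VEGF (SD, n = 4 each).

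The 7 members other than Kit and Gata2 were also summed by library, a choice made after their values were seen and described with no test. At 3d the sum was 258, 2195, 679 and 665 normalized counts after saline, 7.10, 54.7, 9.23 and 65.1 after MABsallo, and 32.4, 575, 90.8 and 165 after MABsallo-VEGF. The 4 MABsallo libraries held 1, 10, 1 and 12 reads of the 7 genes together. At 7d the sum lay between 553 and 1122 after saline, 358 and 909 after MABsallo and 195 and 949.6 after MABsallo-VEGF. The 2 libraries of MABsallo-VEGF labelled as recovered had sums of 461 and 334, between the 195 and 949.6 of the other libraries of that group. In a bulk sample, fewer mast cells and less RNA of these genes per cell cannot be told apart.

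Markers of several other cell types differed between MABsallo and saline at 3d as well. Between MABsallo and saline, 8 of 8 macrophage markers were lower (median log2 difference -1.75), 5 of 5 fibroblast markers (-1.29), 6 of 6 adipocyte markers (-1.58) and 5 of 6 endothelial markers (-0.50), while 6 of 7 urothelial and squamous markers (1.23) and 5 of 5 striated muscle markers (1.45) were higher. Smooth muscle markers were 3 higher and 3 lower (median 0.10), neutrophil markers 2 higher and 5 lower (-0.28), and lymphoid and dendritic markers 2 higher and 4 lower (-0.21). Summed fibroblast markers ranged from 38500 to 210800 normalized counts after MABsallo and from 263400 to 396000 after saline, and summed macrophage markers from 1235 to 12270 and from 12340 to 22980. Endothelial markers summed to 3919 to 9607 after MABsallo and 8995 to 18890 after saline, adipocyte markers to 440 to 1680 and 875 to 9325, urothelial and squamous markers to 9694 to 29560 and 780 to 16620, and striated muscle markers to 65210 to 287500 and 30480 to 145900. Of the neutrophil markers, 1 was at 0 in all libraries of MABsallo at 3d, and 1 in all of MABsallo-VEGF at 3d. Of the lymphoid and dendritic markers, 2 were at 0 throughout saline at 3d, 1 throughout MABsallo and 2 throughout MABsallo-VEGF. No marker of the other lists named here was at 0 in all libraries of a group. Their part in the low values of the members was not tested. Relative to the fibroblast markers, the 7 summed members had 98.1 to 554 counts per 100000 after saline and 10.5 to 49.3 after MABsallo, and relative to the macrophage markers 20.9 to 95.5 and 1.78 to 10.2 per 1000. These ratios use the samples and genes that chose the members and are a description only. The mean sum of the 7 members was 27.9-fold higher after saline than after MABsallo, that of the fibroblast markers 2.75-fold and that of the macrophage markers 2.55-fold. Without saline replicate 8 these values were 15.7, 2.54 and 2.18. Between MABsallo-VEGF at 3d and 7d, limma called 1 of 7 neutrophil markers, Csf3r, higher at 3d by 2.47 ± 0.77 (adjusted p = 0.0264), and 1 of 6 smooth muscle markers, Acta2, lower by 1.40 ± 0.43 (adjusted p = 0.0233), beside 15.3% of all genes.

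**Figure D4:**
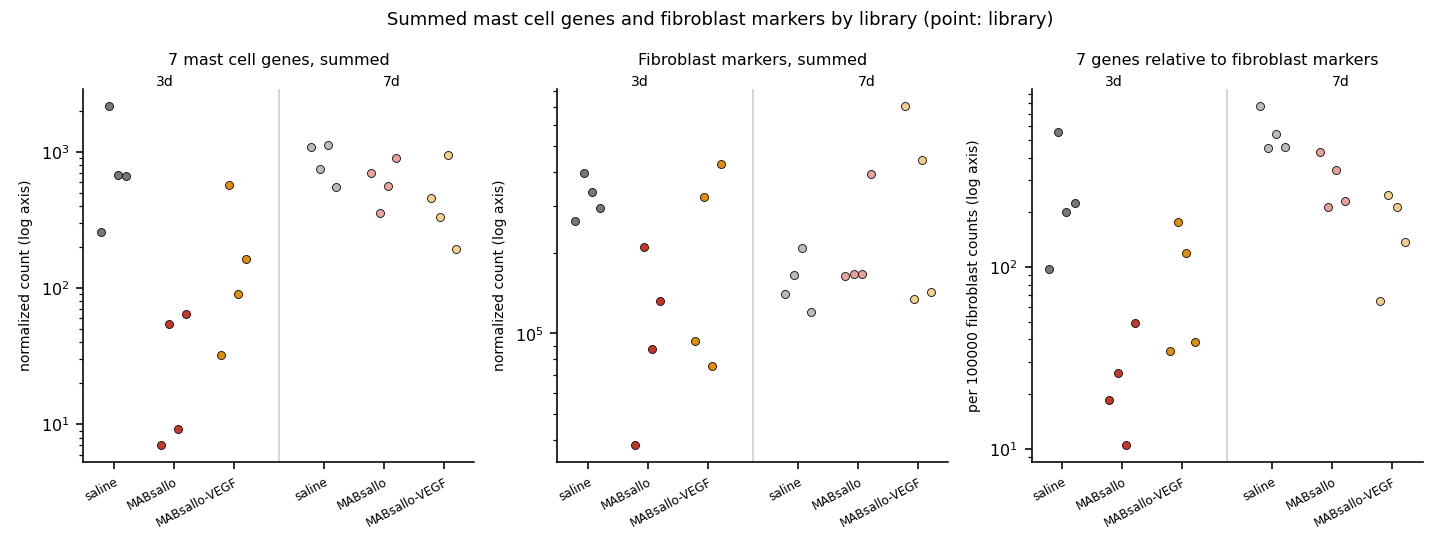
Summed normalized counts by library, on log axes, of the 7 members other than Kit and Gata2 (left), of 5 fibroblast markers (middle) and the first divided by the second, per 100000 (right); each point is a library. In the right panel the MABsallo libraries of 3d lie between 10.5 and 49.3, under the 98.1 to 554 of saline.

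Of 28 other mast cell genes, 24 were in the table and 16 passed the filter. All 16 were lower after MABsallo than after saline at 3d, with a median log2 difference of -0.92, and 13 of 16 were lower after MABsallo-VEGF (-0.74). Mcpt1l1, a chymase-like mast cell protease, had 145, 2481, 114 and 137 normalized counts after saline, 7.10, 27.4, 27.7 and 0 after MABsallo, and 21.6, 150.0, 30.3 and 40.1 after MABsallo-VEGF. Saline replicate 8 held most of its reads in that group, and no MABsallo library reached the lowest saline library. Cd63, Enpp3 and Mitf, which many cells use, differed by -0.99 ± 0.32, -0.25 ± 0.42 and -0.61 ± 0.39 between MABsallo and saline. Fcer1g, the gamma chain that FceRI shares with Fc receptors of other leukocytes, had a mean of 1710 after MABsallo, 4628 after saline and 5509 after MABsallo-VEGF at 3d. In limma's test of MABsallo-VEGF at 3d vs 7d, 1 of the 16 was called (beside 15.3% of all genes), Fcer1g, which was higher at 3d by 1.22 ± 0.41 on the log2 scale (adjusted p = 0.0399), while Fcer1a and Ms4a2 had lower values there.

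Of 18 genes of KIT and FceRI signalling, all tested, 9 were higher and 9 lower between MABsallo and saline at 3d (median 0.02). Between MABsallo-VEGF at 3d and 7d 16 of 18 were higher at 3d and 3 were called, all upwards, beside 15.3% of all genes called in either direction. Cbl, a ubiquitin ligase, differed by 4.30 ± 1.01 (limma adjusted p = 0.00445), Gab2, an adaptor, by 3.39 ± 0.99 (0.0182) and Lcp2, the adaptor SLP-76, by 1.42 ± 0.43 (0.0208). Cbl held 15, 11, 16 and 6 reads at 3d and 0, 2, 1 and 1 at 7d. Gab2 held 4, 5, 7 and 1 reads at 3d and 0, 1, 0 and 1 at 7d. At 7d both lay under the limit of 3 reads per library, so the sizes of their differences depend on the pseudocount. Kitlg, the ligand of KIT, had means of 1039 after saline, 1253 after MABsallo and 1353 after MABsallo-VEGF at 3d.

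Of 8 genes for cytokines that act on mast cells, 3 passed the filter and none was called in the tested comparisons. Il33 had 5058, 10610.4, 3717 and 3656 normalized counts after saline at 3d, 1676, 5252, 2105 and 2783 after MABsallo, and 2639, 10743, 2977 and 2970 after MABsallo-VEGF. The 3 groups overlapped, and the highest values were those of saline replicate 8 and MABsallo-VEGF replicate 2. Of 7 genes for histamine breakdown, histamine receptors and the tryptase receptor, 4 passed. Hrh1, the H1 histamine receptor, was called between MABsallo-VEGF at 3d and 7d (limma adjusted p = 0.0180), with 0, 50.01, 15.1 and 8.91 normalized counts at 3d and no read in any library of 7d. These values at 3d stand for 0, 6, 3 and 2 reads, so the call rests on few reads. F2rl1, a receptor cleaved by tryptase, differed by -1.84 ± 0.67 in the same comparison (adjusted p = 0.0555).

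Outside the members, 13838 genes were ranked by their likeness to the mean of Cpa3 and Tpsb2 over the 24 libraries. The 10 most alike were Gli1, Tnfsf13b, Serping1, Snn, Gpx3, Cadm3, C1qb, Lbp, Mcpt1l1 and S1pr3, with Spearman correlations of 0.904 to 0.867. Over the 16 libraries that did not choose the members, these values ranged from 0.776 to 0.909. Mcpt1l1 is the only other mast cell protease among them, and C1qb is a macrophage gene. Gli1 had 145, 1007, 268 and 278 normalized counts after saline at 3d, 21.3 to 119 after MABsallo and 90.8 to 178 after MABsallo-VEGF.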

How the data were processed

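RNA from urethral tissue was extracted by the authors with TRIPURE and made into 3′ libraries with the QuantSeq kit. Alignment by the authors was to Rnor6.0 with HISAT2. Uniquely mapped reads were counted on genes with HT-seq Count, and each sample was scaled by its size factor from DESeq2, so the deposited signal is a normalized count. In each sample 100% of the values above 0 were whole multiples (within 0.001 of a read) of what 1 read is worth, and reads were recovered from these steps. Samples held 2170695 to 10166052 reads. Samples were grouped by their labels. Members and lists were chosen with earlier results of these data known.

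Differences were fitted with limma 3.58.1 in R 4.3.3 on log2(normalized count + 1), with a trended variance, for 16287 genes with a mean of at least 2, with the 6 groups in 1 model. The two-sided p-values were adjusted by Benjamini-Hochberg over all genes tested, and a gene was called past a log2 difference of 1 where its adjusted p was below 0.05. No p is given for a difference that involves saline or MABsallo samples of 3d. Those samples still enter the estimate of the spread, which the 6 groups share, behind every SE, p and confidence interval. Members are all named. Of the other lists a gene is named where it was called, was among the 4 of highest mean, or was among the 10 genes most like Cpa3 and Tpsb2 over the samples. The tests were also run on simulated data, and the outcome is not given here. Alternatives were a pseudocount of 5, no filter or a filter at 10, other scalings, sample weights, DESeq2 1.42.0 and edgeR 4.0.16 on the recovered reads, fitting only the groups compared, a replicate block, and leaving out libraries. The counts of members that did not overlap with libraries left out, the sums relative to other markers, and the ratios without saline replicate 8, were chosen after seeing the data. Intervals of read counts are exact binomial and cover counting error only. Whether strand was used in counting is not given in the sources used here.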

Additional observations from a re-analysis of the deposited data

Results flagged for a closer look

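For each member the highest and lowest of the 4 libraries of a group were set against the other 3. In 8 of 52 groups 1 library lay far from the rest by Dixon's criterion. For normally distributed values chance meets it in about 1 of 20 groups. Counts near 0 are not such values and the groups share libraries, so the 8 cannot be read against that rate. Saline replicate 8 at 3d stood apart for Cma1, with 203.8 normalized counts against 21.4 to 44.8, and for Ms4a2, with 125.4 against 20.7 to 32.2. MABsallo-VEGF replicate 2 at 3d stood apart for Tpsb2, with 250 against 21.6 to 53.4, and for Fcer1a, with 16.67 (2 reads) against 0 in each of the others. MABsallo-VEGF replicate 11 at 7d had 155.2 of Cma1 against 0 to 11.4, and 37.24 of Fcer1a against 3.15 to 8.56. Kit reached 703.3 in saline replicate 3 at 7d, against 116 to 196 in the rest of that group. Gata2 reached 6362 in MABsallo replicate 1 at 3d, against 2161 to 2555 in the other 3 libraries.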

How the results depend on the processing

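Median log2 differences over the 9 members kept their sign and moved by less than 1.52, the SD of the member median between libraries, under all alternatives in the 5 comparisons that use saline or MABsallo samples of 3d, except for MABsallo at 3d vs 7d, where a pseudocount of 5 gave -2.31 in place of -3.90, and for saline at 3d vs 7d, whose median near 0 ranged from -0.42 to 0.34. Leaving out 1 library at a time, the median ranged from -4.87 to -3.62 for MABsallo vs saline at 3d, from -3.32 to -1.96 for MABsallo-VEGF vs saline, from 0.19 to 1.68 for MABsallo-VEGF vs MABsallo and from -4.50 to -3.49 for MABsallo at 3d vs 7d. In MABsallo-VEGF at 3d vs 7d, where no member was called, quantile normalization called 2 (Tpsab1 and Ms4a2), sample quality weights 4 (Tpsb2, Tpsab1, Ms4a2 and Fcer1a) and the fit of the 22 libraries other than saline replicate 6 and MABsallo-VEGF replicate 4 of 3d called 1 (Tpsab1). That fit of 22 libraries called 3313 of 16281 genes, and over the 10 alternatives 2190 to 3380 of all genes were called. Leaving out 1 library at a time gave 0 to 3 members there, with 3 without MABsallo-VEGF replicate 2 of 3d, beside 1746 to 3217 of all genes. In each of the 3 comparisons at 7d, 0 members were called under every alternative. Of all genes, 0 to 8 were called there for MABsallo vs saline, 0 to 147 for MABsallo-VEGF vs saline and 0 to 4 for MABsallo-VEGF vs MABsallo. Of 1035 values of single members under the alternatives, 1012 kept their call or moved by less than the spread, 11 passed the threshold, 11 moved further and 1 reversed, which was Tpsab1 in MABsallo-VEGF vs MABsallo at 3d, at -1.07 with sample quality weights. The cause of these changes was not tested. With the replicate block, the median for MABsallo-VEGF vs MABsallo at 3d was 0.95, as without it. Each replicate number is shared by both groups, so the block cannot change the fitted differences and this equality is not a check. Deviations of libraries with the same number correlated at 0.068 to 0.245, so 1 of 4 pairs was under 0.1 and the libraries were not treated as paired. That 6 of 8 correlated best with their own number is a hint from the data, not from the design. Scaling to the same total moved the median of all genes between MABsallo and saline at 3d from 0.07 to -0.19. Depth limits Fcer1a, Hdc, Cma1 and Ms4a2, which had few reads per library at 3d.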
